A study of Mus musculus with 4 samples.

Results

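The 9 Wnt ligand genes described here are Wnt2b, Wnt4, Wnt5a, Wnt5b, Wnt6, Wnt7b, Wnt10b, Wnt11 and Wnt16, ligands that have been tied to bone and cartilage. They were taken from the array annotation: a probe set, the group of short probes that reads 1 transcript, counted where it was annotated to exactly 1 of these symbols. All 9 genes were found, on 16 of the 45101 probe sets of the deposited table, and they make up 9 of 18193 genes with a probe set of their own. Expression was measured in cells sorted from the bone marrow of adult mice of the strain NOD.CB17-Prkdc scid/J, which lacks mature B and T cells owing to its scid mutation and which the design text calls recipients. The sort kept Lin- CD45- CD31- Sca1- CD51+ cells, called osteoblasts by the submitters, a gate against the antigens of blood cells, endothelium and Sca1-bearing cells and for integrin alpha v. All 4 samples share this strain and this sort. They differ in the place the marrow came from, with 2 arrays from the trabecular bone area and 2 from the long bone area. The labels call the 2 arrays of each area biological replicates. They do not say which mice gave which array, or whether animals were pooled, so p-values cover the spread between these samples alone. The area is the only factor in the design, and every comparison below is between the areas.

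Wnt proteins are secreted, lipid-modified ligands that bind Frizzled receptors. With the co-receptors Lrp5 or Lrp6 they keep beta-catenin from being degraded, so that it enters the nucleus and switches on genes with the TCF and LEF factors. With Ror2 or Ryk they act without beta-catenin, on cell polarity, calcium and the cytoskeleton. In bone, beta-catenin signalling favours osteoblasts over fat cells and cartilage cells and lowers osteoclast formation, and secreted antagonists such as sclerostin hold it in check.

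Each probe set's values are on the log2 scale with their median over the arrays set to 0, so a value says how an array differs from the others and not how much transcript there is. By this centring the middle pair of arrays lie at equal distances on either side of 0 on each probe set. A gene's value is the mean of its probe sets, and differences are trabecular minus long bone. A coarse level could be read from the last digits of the stored numbers for 15 of the 16 probe sets. For 4 of them it was 8 or more on the log2 scale, which is called bright here: 1450782_at of Wnt4, 1435980_x_at of Wnt6 and both probe sets of Wnt7b. The other 11 lay below 8 on at least 1 array, and none had the step of levels under 4. Over the whole array 33.7% of the probe sets read were bright. A probe set below 8 can be taken for bright by chance, and brightness also depends on probe affinity, so these bands do not rank the genes.

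Few facts of the whole series bear on the ligands. Long bone array 2 stood apart, with 2493 probe sets 2-fold or more away from the median of the arrays, while the others had 383 to 848, and its 5' minus 3' contrast of the Gapdh control, which centring leaves only relative to the other arrays, was -1.16 against -0.086 to 0.31 on those. Of 6 osteoblast markers measured, 4 had a bright probe set, while Ibsp and Sp7 had none. 3 further osteoblast markers were not analysed here. Of 6 macrophage markers 4 had one too, among them Ptprc, the gene of the CD45 antigen the sort selected against, as did 4 of 7 neutrophil and 1 of 6 endothelial markers. Of 9 chondrocyte markers 1 had a bright probe set, and of 5 adipocyte markers 1. The share of all genes with a bright probe set was not counted, and a gene with several probe sets has more chances of one. For the neutrophil markers S100a8 and S100a9 no level could be read, and they are counted as having none.

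For 4 of the 9 ligands the arrays did not overlap between the areas, which is no more than the 51.4% of all genes. The promoters of these 4 ligands are shown first, as a choice of what to print and not as a result. Each is the 250 bases before a start site in RefSeq, build GRCm38.p6, 5' to 3' on the gene's strand, and RefSeq promoters were at hand for 7 of the 9 ligands. Capitals mark 4 motifs, searched on both strands: ATCAAAG, the core bound by TCF and LEF factors, CCAAT, the TATA box TATAAA, and GGGCGG, the GC box of Sp1.
Wnt4, chr4:137277385-137277634, plus strand: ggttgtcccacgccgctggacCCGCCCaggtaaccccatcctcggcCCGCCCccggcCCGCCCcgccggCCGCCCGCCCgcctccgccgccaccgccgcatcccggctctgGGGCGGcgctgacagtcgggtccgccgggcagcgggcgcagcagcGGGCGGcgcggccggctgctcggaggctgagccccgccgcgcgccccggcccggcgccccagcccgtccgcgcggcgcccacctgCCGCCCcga
Wnt11, chr7:98834862-98835111, plus strand: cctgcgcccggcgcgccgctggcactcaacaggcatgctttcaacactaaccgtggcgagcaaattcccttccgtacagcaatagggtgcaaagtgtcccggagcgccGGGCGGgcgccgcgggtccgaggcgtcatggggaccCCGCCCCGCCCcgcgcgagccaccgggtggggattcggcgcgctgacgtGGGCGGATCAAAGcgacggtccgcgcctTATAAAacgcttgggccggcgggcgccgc
Wnt16, chr6:22287977-22288226, plus strand: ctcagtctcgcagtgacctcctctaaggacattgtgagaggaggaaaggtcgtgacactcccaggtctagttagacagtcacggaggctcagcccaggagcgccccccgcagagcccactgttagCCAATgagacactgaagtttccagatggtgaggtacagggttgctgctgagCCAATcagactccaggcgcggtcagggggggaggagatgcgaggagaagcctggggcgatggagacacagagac
Wnt6, chr1:74771642-74771891, plus strand: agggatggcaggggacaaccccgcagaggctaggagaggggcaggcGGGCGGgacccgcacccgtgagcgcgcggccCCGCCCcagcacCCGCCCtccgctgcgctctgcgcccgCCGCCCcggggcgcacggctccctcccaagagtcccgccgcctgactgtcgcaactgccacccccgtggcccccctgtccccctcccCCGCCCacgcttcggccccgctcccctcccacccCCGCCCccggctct
Wnt4 had 8 GC boxes, one pair of which overlaps, and none of the other motifs. Of its 250 bases 85.2% were G or C, against a median of 52.4% over 32851 promoters of the same length. Wnt11 had a TATA box that began 29 bases before the start and a TCF and LEF core that began 51 bases before it, directly after a GC box. It had 4 GC boxes in all, and its second start site in RefSeq had none of the 4 motifs. Wnt16 had 2 CCAAT boxes, 125 and 74 bases before the start, and no other motif, with 59.2% G or C. Wnt6 had 6 GC boxes and none of the other motifs. The TCF and LEF core stood in 3.21% of all promoters, the CCAAT box in 33.9%, the TATA box in 12.4% and the GC box in 32.7%. These are matches of letters, and a match is not a binding site.

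The ligands differed little between the areas. In the trabecular area 5 of the 9 were higher and 4 lower, the median log2 difference was 0.0066, and over all 18193 genes it was 0.029. The median size of the difference, whatever its direction, was 0.11 for the ligands and 0.20 for all genes. The ligands also varied less over the 4 arrays as a whole, with a median range of 0.31 against 0.43 for all genes. With limma, 0 of the 9 had an adjusted p under 0.05, and neither did any of the 18193 genes (0%). At an unadjusted p under 0.05 there was 1 ligand, Wnt4, while 2811 genes (15.5%) passed. The arrays of the areas did not overlap for 4 of the 9, 3 lower and 1 higher in the trabecular area. Over all genes 51.4% did not overlap, 21.4% lower and 29.9% higher, so 4 of 9 is no more than the background. With 2 arrays in each area the smallest two-sided p of an exact permutation test is 0.333, so it could not call any single ligand. In bulk samples such as these, fewer cells of a type and less RNA per cell cannot be told apart.

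**Figure D1:**
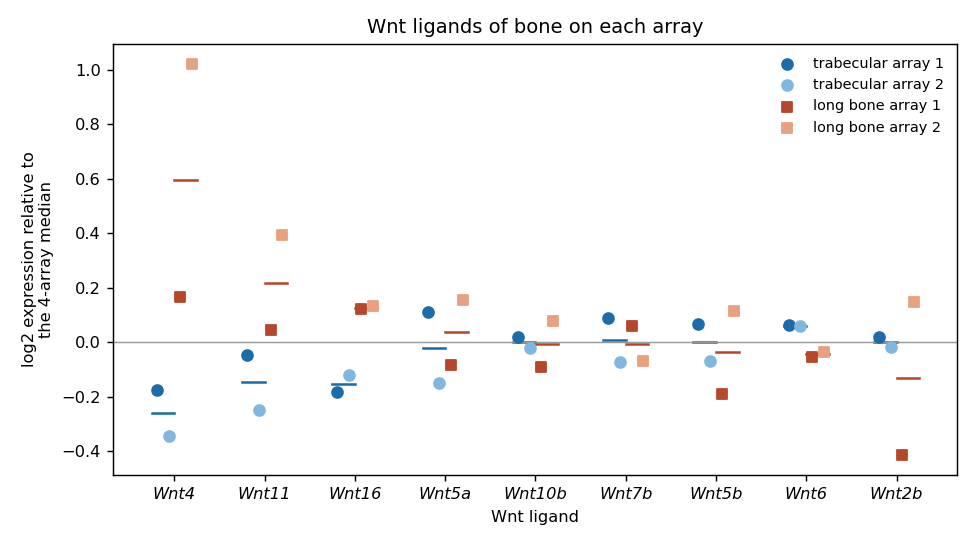
Log2 expression of each Wnt ligand relative to the 4-array median (vertical axis) on the 4 arrays, circles for the trabecular and squares for the long bone area, with a short line at the mean of each area. Wnt4 on long bone array 2, at 1.02, is the value farthest from 0, and Wnt4, Wnt11 and Wnt16 are the ligands with both trabecular arrays below both long bone arrays.

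Wnt4, Wnt5a, Wnt5b, Wnt11 and Wnt16 are ligands often studied for signalling without beta-catenin, although Wnt4 and Wnt16 can also use it. Wnt4 is known for its role in the development of the kidney and the female reproductive tract, and in mice osteoblast-made Wnt4 has been reported to protect bone. Trabecular arrays 1 and 2 read -0.18 and -0.34, against 0.17 and 1.02 for the long bone arrays in the same order. Both trabecular arrays were the lower ones, and long bone array 2 stood well above its partner. The difference was -0.86 (SE 0.31, 95% interval -1.69 to -0.024, n = 2 per area), a 1.81-fold lower value, with a limma adjusted p of 0.318. This was the largest difference among the ligands, and 95.2% of all genes had a smaller one. It was about as large as the gap of 0.85 between the long bone arrays, and without long bone array 2 it was -0.43. Without long bone array 1 it was -1.28, and Wnt4 then passed at an adjusted p of 0.0371, in a fit whose spread comes from the trabecular arrays only and in which 1603 genes passed.

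The probe sets of Wnt4 differed in the same direction by unequal amounts. 1450782_at, which is drawn from the RefSeq transcript, read -0.31 and -0.29 in the trabecular area against 0.29 and 1.76 in the long bone area. Its difference of -1.33 (95% interval -2.76 to 0.11, limma adjusted p = 0.328) was the only one of 2-fold or more among the 16 probe sets, and it was -0.59 without long bone array 2. 1441687_at, drawn from an expressed sequence tag, read -0.045 and -0.40 against 0.045 and 0.28, a difference of -0.38 (adjusted p = 0.392). Both had the trabecular arrays below the long bone arrays.

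Wnt11 acts on tissue movements in the embryo and on kidney branching. It read -0.045 and -0.25 in the trabecular area against 0.045 and 0.39 in the long bone area. The areas did not overlap, but trabecular array 1 and long bone array 1 lay close together. The difference was -0.37 (SE 0.18, 95% interval -0.84 to 0.11, adjusted p = 0.390), with 72.4% of all genes differing less. Leaving out long bone array 2 gave -0.19, and leaving out long bone array 1 gave -0.54, so its size depended on single arrays. Its direction could not turn with 1 array left out, since the areas did not overlap.

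Wnt16 is made by osteoblasts and in mice protects cortical bone by limiting osteoclasts. It read -0.18 and -0.12 in the trabecular area against 0.12 and 0.13 in the long bone area. The arrays of each area lay close together and the areas were apart. The difference was -0.28 (SE 0.12, 95% interval -0.59 to 0.035, adjusted p = 0.353), a 1.21-fold lower value. With 1 array left out it stayed between -0.31 and -0.25, the narrowest span of the 3 ligands that were lower without overlap. With ordinary t statistics in place of limma's the unadjusted p was 0.0128 and the adjusted p 0.467. The difference was still of ordinary size for these arrays, as 62.9% of all genes had a smaller one.

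Wnt5a and Wnt5b are close relatives that guide chondrocyte maturation in the growth plate, and Wnt5a signals through Ror2. Wnt5a, the mean of 4 probe sets, read 0.11 and -0.15 in the trabecular area against -0.084 and 0.16 in the long bone area. The areas overlapped in part, and the difference was -0.056 (95% interval -0.50 to 0.38). Of its 4 probe sets 1437673_at was at 0.053 and the others between -0.11 and -0.062. 1448818_at read 0.27 on trabecular array 1 and -0.40 on trabecular array 2, the widest gap within an area among the Wnt5a probe sets. Wnt5b read 0.067 and -0.067 against -0.19 and 0.11, a difference of 0.037 (95% interval -0.39 to 0.46). Here too each area held a higher and a lower array, and the sign of both genes turned with single arrays left out.

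Wnt2b, Wnt6, Wnt7b and Wnt10b are ligands best known for signalling through beta-catenin. Wnt10b, which favours osteoblasts and holds back fat cells, read 0.019 and -0.019 in the trabecular area against -0.092 and 0.079 in the long bone area. The trabecular arrays lay between the long bone arrays, and the difference was 0.0066 (95% interval -0.34 to 0.35). Only 1.92% of all genes differed less. Wnt7b, which drives osteoblast differentiation in mice, read 0.088 and -0.072 against 0.059 and -0.069, a difference of 0.013 (95% interval -0.35 to 0.37). Its probe sets, both of them bright, differed by 0.019 and 0.0060.

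Wnt6, reported in mouse cells to hold back fat cells as Wnt10b does, was the only ligand higher in the trabecular area without overlap. It read 0.063 and 0.059 there against -0.054 and -0.035 in the long bone area. In the mean of its probe sets the arrays of each area were nearly equal. The difference of 0.11 (95% interval -0.20 to 0.42, limma adjusted p = 0.685) was small. With ordinary t statistics, which take the gene's own spread alone, the unadjusted p was 0.00833 and the adjusted p 0.451. Its probe sets 1419708_at and 1435980_x_at differed by 0.091 and 0.12, and the name of the second marks probes that can also bind other transcripts. In the trabecular area 1419708_at read 0.094 and 0.0066, and 1435980_x_at 0.032 and 0.11, the opposite order. In the long bone area they read -0.076 and -0.0066, and -0.032 and -0.064, again in opposite order. The small spread of Wnt6 within each area thus came from averaging its probe sets. Wnt2b, a ligand of the developing eye and lung, read 0.018 and -0.018 in the trabecular area against -0.41 and 0.15 in the long bone area. The trabecular arrays again lay between the long bone arrays. The difference was 0.13 (95% interval -0.46 to 0.72), with 0.41 when long bone array 2 was left out and -0.15 when long bone array 1 was.

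**Figure D2:**
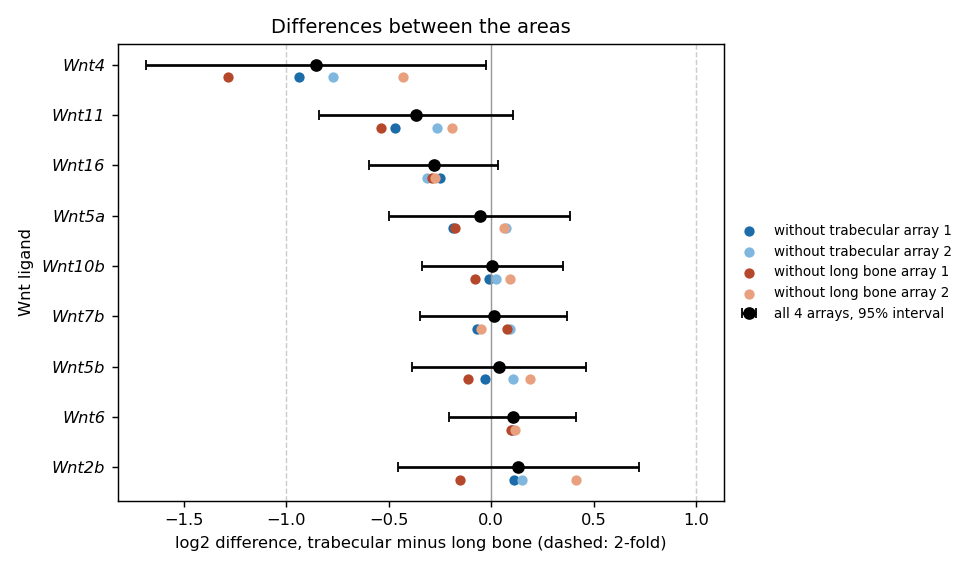
Log2 difference between the areas for each Wnt ligand, trabecular minus long bone, with the 95% interval of the limma fit as a bar (black), and the difference with 1 array left out (coloured points). All intervals but that of Wnt4 lie inside the dashed lines at 2-fold, and the points of Wnt16 and Wnt6 lie closest together.

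The intervals apply to the values measured on these arrays, and whether the transcripts themselves differed by more was not tested. For 8 of the 9 ligands the 95% interval, not adjusted for the number of genes, lay inside a 2-fold change in either direction, and the exception was Wnt4. Over all genes 78.2% had such an interval and 2.89% differed by 2-fold or more, against 0 of the 9 ligands. The area difference was larger than the larger gap within an area for 4 ligands, Wnt4 by almost nothing, Wnt11, Wnt16 and Wnt6, and over all genes for 35.8%. For the other 5, arrays of the same area differed by more than the areas did.

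**Figure D3:**
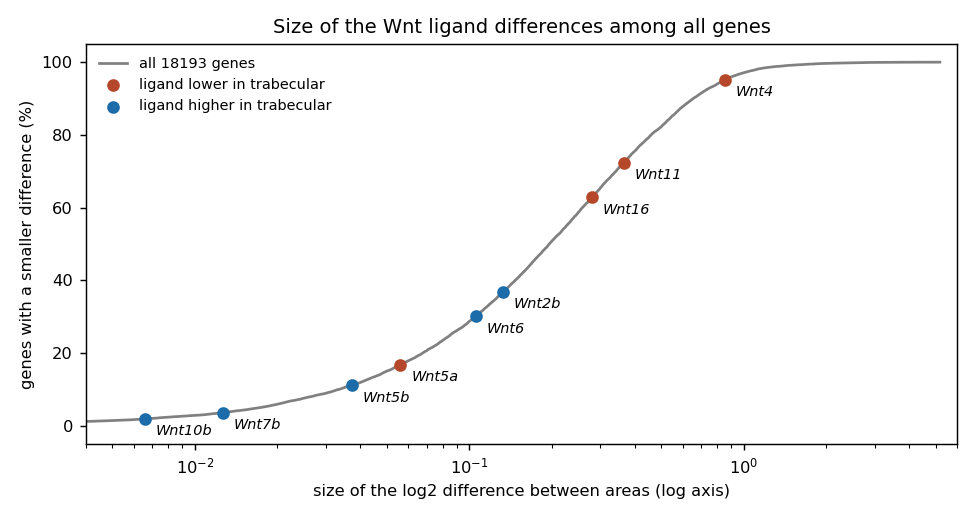
Share of all 18193 genes whose difference between the areas is smaller than a given size (grey line, log horizontal axis), with the Wnt ligands at their own size. Wnt10b and Wnt7b, at 1.92% and 3.62%, lie at the low end and Wnt4, at 95.2%, near the top.

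Of the 9, 7 were highest on long bone array 2, where 35.2% of all genes were highest, and Wnt6 and Wnt7b were the exceptions, highest on trabecular array 1. Long bone array 2 lay above long bone array 1 for 8 of the 9 (56.2% of all genes), and trabecular array 1 above trabecular array 2 for 8 of the 9 (58.7%). The ligands had a median of 0.13 on long bone array 2, against 0.019 on trabecular array 1, -0.072 on trabecular array 2 and -0.054 on long bone array 1. Markers of several other cell types differed over the arrays too. On long bone array 2 the 9 reticular stroma markers had a median of 1.63, against 0.013, -0.58 and -0.069 on the other arrays in the same order. The 5 adipocyte markers had a median of 1.30 there, against 0.22, -0.34 and -0.26, although Cebpa among them read -0.19 on long bone array 2. Not all lists were high on that array. Its medians were -0.068 for endothelial, -0.075 for neutrophil and -0.17 for macrophage markers, and 0.39 for erythroid and 0.29 for B lineage markers. The 6 osteoblast markers measured were all lower in trabecular samples without overlap, with medians of -0.64 and -0.32 against 0.20 and 0.78. Their differences ran from -2.46 for Col1a2 to -0.13 for Itgav. The median of the 5 smooth muscle markers was highest on long bone array 2, at 0.70, and that of the 2 joint surface markers on long bone array 1, at 5.03. All 9 chondrocyte markers were lower in the trabecular area, without overlap, with medians of -1.64 and -1.61 against 1.66 and 1.61. Over all genes 21.4% were lower without overlap, and none of the osteoblast and chondrocyte markers was called. The centred values carry no level beyond the coarse bands, so no marker can be given as absent. The part of these cell types in the ligand values was not tested. The genes most like Wnt4 by Euclidean distance over the 4 arrays were Igfbp7 (0.043), Adamts9 (0.044) and Kdelr3 (0.062).

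Some Wnt genes lie side by side on the chromosomes. In the RefSeq annotation Wnt6 is next to Wnt10a on chromosome 1 and Wnt10b next to Wnt1 on chromosome 15, with no protein-coding gene between. Wnt10a differed by 0.052 beside 0.11 for Wnt6, and Wnt1 by -0.0022 beside 0.0066 for Wnt10b. None of these 4 genes passed the test. The other 10 Wnt ligand genes had a median of -0.023, with 4 higher, 6 lower and 0 called. The median turned to 0.041 without long bone array 2 and to 0.014 without trabecular array 2, and was -0.050 and -0.072 when trabecular array 1 and long bone array 1 were left out. Their extremes were Wnt3 (0.19, and 0.082 without trabecular array 1) and Wnt8b (-0.54, and -0.27 without long bone array 2). The Wnt8b value came from 1 of its 3 probe sets, 1441316_at, at -1.60 (adjusted p = 0.233), while the others were at -0.081 and 0.063.

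The rest of the pathway was measured on 82 genes. In the trabecular area 56 of these were lower and 26 higher, and their median was -0.10, while 45.4% of all genes were lower. None passed with limma over all genes, and at an unadjusted p under 0.05 there were 6, all lower, which is a smaller share than the 15.5% of all genes. Without long bone array 2 there were 51 lower and the median was -0.035. Over all 18193 genes 7561 were lower in that setting, and the median was 0.047. With 1 of the other arrays left out, 52 to 60 of the 82 were lower, with medians from -0.20 to -0.050.

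Before a Wnt ligand leaves the cell it is given its lipid by Porcn and carried by Wls. They differed by 0.083 and 0.26, and Porcn turned to -0.011 without trabecular array 1. Wls did not overlap between the areas, with 0.17 and 0.12 against -0.12 and -0.11 (adjusted p = 0.368). Of 10 Frizzled receptors 8 were lower, with a median of -0.10 and values from -0.44 (Fzd9) to 0.018 (Fzd3). Leaving out long bone array 2 brought that median to -0.030, leaving out trabecular array 2 to -0.032, leaving out trabecular array 1 to -0.23, and leaving out long bone array 1 to -0.28. Of 6 co-receptors 4 were lower, from -0.41 for Ror2 to 0.015 for Ror1, with a median of -0.13, and of -0.057 when long bone array 2 was left out. With 1 of the other arrays left out that median was -0.19 to -0.11. Ror2, the receptor of Wnt5a, read -0.18 and -0.19 in the trabecular area against 0.11 and 0.34 in the long bone area. Its arrays were apart where those of Wnt5a overlapped, but it was not called (limma adjusted p = 0.302). Over all genes 51.4% had no overlap, and the co-receptors Ror1 and Ryk overlapped between the areas.

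R-spondins, which raise the sensitivity of cells to Wnt, and their receptors and the ligases Rnf43 and Znrf3 had a median of -0.20, and 7 of 9 were lower. They ranged from -0.62 for Rspo3 to 0.13 for Lgr4. Rspo3 was at -0.16 without long bone array 2, and the median was then -0.060. With 1 of the other arrays left out, Rspo3 was at -1.08 to -0.39 and the median at -0.29 to -0.13. Of 13 secreted antagonists and Kremen receptors measured 11 were lower, with a median of -0.19, and 1 was not analysed here. They ranged from -3.79 for Wif1, an inhibitor that binds Wnt proteins, to 0.0031 for Kremen1. Wif1 was at -2.05 without long bone array 1, and the median without long bone array 2 was -0.074.

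Inside the cell, 11 of 12 genes of the beta-catenin core were measured, 7 higher and 4 lower, with a median of 0.017. The median turned to -0.031 without long bone array 2 and to -0.016 without trabecular array 2. It was 0.15 without trabecular array 1 and 0.19 without long bone array 1. The extremes of this list were Axin1 (0.30), part of the complex that destroys beta-catenin, and the transcription factor Tcf7l2 (-0.38, and -0.14 without long bone array 2). Of 8 target genes 7 were lower, with a median of -0.23, and -0.083 without long bone array 2. With 1 of the other arrays left out the median of the target genes was -0.34 to -0.24. Axin2, the target most often used as a readout of beta-catenin signalling, was the exception at 0.070 (0.0060 and 0.11 against -0.0060 and -0.019). Tnfrsf11b, the decoy receptor osteoprotegerin, was lowest at -1.16, and at -0.20 without long bone array 1, on which it read 1.97. Of 13 effectors of signalling without beta-catenin 9 were lower, with a median of -0.11 and values from -0.31 for Prickle2 to 0.52 for Nfatc1. Without long bone array 2 these were at -0.016 and 0.15, and the median at -0.015. With 1 of the other arrays left out the median of the effectors was -0.23 to -0.068. No gene of these lists was called over all genes.

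**Figure D4:**
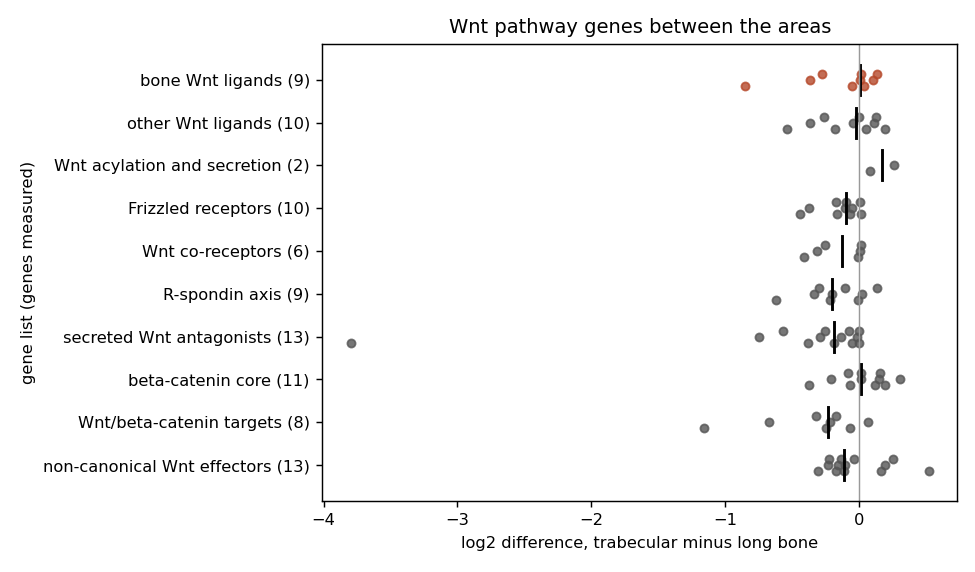
Log2 difference between the areas, trabecular minus long bone, of the Wnt ligands of bone (top row) and of the other genes of the pathway by list, with the number of genes measured in brackets and a black line at each list's median. The list medians lie between -0.23 and 0.17, and Wif1 at -3.79 and Tnfrsf11b at -1.16 are the genes farthest from 0.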

How the data were processed

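Per the labels' protocols and the design text, total RNA of the sorted cells was amplified, biotin-labelled and put on Affymetrix arrays. The design text gives a human array type, while probe set names and annotation are those of a mouse array. The deposited values are log2 expression, made with RMA (no version given) per the submitters' processing notes. They were also centred: for all 45101 probe sets the median over the 4 arrays is 0 to rounding. The software of the centring is not given in the sources used here, and log base 2 is what RMA gives.

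Group and replicate came from the sample titles. After 64 controls were left out, 45037 probe sets were tested, 34945 of them with 1 gene, 932 with several and 9160 with none in the annotation, and 34741 were matched to RefSeq by gene ID with 0 symbols changed. The fit of the areas used limma 3.58.1 and R 4.3.3 (lmFit, eBayes without trend, 2 residual degrees of freedom), with Benjamini-Hochberg adjustment over all genes or probe sets and calls at 0.05. The fit was tested on simulated data. Brightness bands come from the smallest binary step of the stored numbers, read where at least 3 values were 0.001 or more in size. Members and lists were chosen with earlier results of these data known, so no test over a list is given. Named pathway genes are the highest and lowest of each list, and genes named beyond that, such as Wls, Ror2 or Axin2, were picked after their values were seen. Each array was left out in turn, and normalization, variance prior, probe set choice and block were varied. Precision is limited by the number of arrays.

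Deviations of same-numbered arrays from their area means correlated at -0.11 over genes, so the replicate numbers do not show a pairing.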

Additional observations from a re-analysis of the deposited data

How the results depend on the processing

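The limits are the 2 arrays per area and centred values without levels beyond the coarse bands. Calls over all genes were 0 and those over probe sets 0. With a trend in the prior variance they were 6 and 15, with ordinary t statistics 1 and 1, and with 1 array left out 0 to 1603 genes, the highest without long bone array 1, and 0 probe sets. No ligand was called except Wnt4 without long bone array 1 (-1.28), so the count of called ligands ranged from 0 to 1 with 1 array left out. Arrays left as the only one of an area are assumed to vary like the other area. Ligands without overlap numbered 4, and 5 to 8 with 1 array left out, where 3 arrays overlap less often by construction. Over bright probe sets alone 2 of 3 ligands measured, Wnt4 and Wnt6, did not overlap, and the other 6 gave no value. The share of all genes without overlap was not counted with an array left out or over bright probe sets. The counts of ligands in those settings can therefore not be read as high or low. The median difference of the ligands ranged from -0.15 to 0.074 with 1 array left out. The sign of single ligands turned too: Wnt2b ranged from -0.15 to 0.41, Wnt5a from -0.19 to 0.074, Wnt5b from -0.11 to 0.19, Wnt7b from -0.067 to 0.093 and Wnt10b from -0.079 to 0.092. Wnt4, Wnt6, Wnt11 and Wnt16 kept their direction under every alternative run. These are the ligands without overlap, so leaving out 1 array could not turn their sign. The variance prior and the block leave a difference as it is. Only normalization and probe set choice could have turned the direction of these ligands. The replicate block gave 0 called genes and left every difference as it was (Wnt4 at -0.86, adjusted p = 0.358). A block of crossed numbers, chosen after seeing the data because same-numbered arrays deviated in opposite directions, gave 0 called genes too.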
